A study of Mus musculus with 8 samples.

Results

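Igf2 and Dlk1 are imprinted genes of the mouse, and their methylation was read from the CpG island array probes that carry either symbol in the scanner files. They numbered 35 of 88737 non-control probes, 23 named Igf2 and 12 named Dlk1, and 31 of them had input signal well above background on all 8 arrays and were used. Probes whose starts lie up to 500 bp apart were joined, which gave 4 regions among the 13183 regions of at least 3 probes. The value of a probe is the log2 ratio of antibody-bound over input DNA minus the median of its array, and probes are averaged within a region. It ranks a region against the rest of the same array and is no percentage of methylated molecules.

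The study measured methylated DNA by mDIP, in which sonicated and denatured genomic DNA is precipitated with an antibody against 5-methylcytidine, with input DNA in Cy3 and bound DNA in Cy5 on each array. There were 8 arrays in 8 groups of 1. The ES (embryonic stem) cell arrays were wild type, aid-/-, mbd4-/- and Gadd45a knock down. The tissue arrays were liver and spleen of aid-/- mice and of mbd4-/- mice, strain C57BL6/J, age 6 months, and wild-type tissue was not analysed here. Aid deaminates cytidine in DNA, Mbd4 removes mismatched thymine at methylated CpG sites, and Gadd45a takes part in the DNA damage response. For the tissues, the labels give a different source of the DNA for each genotype, so source and genotype cannot be told apart there. The labels do not say how many animals or clones stand behind an array, and DNA arrays do not check the deletions, the knockdown or the tissue through expression.

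Igf2 encodes an insulin-like growth factor that drives fetal growth and is expressed from the paternal chromosome. Dlk1 encodes a transmembrane protein related to the Notch ligands, made in stem and progenitor cells, and is also expressed from the paternal chromosome. Each lies in a domain controlled by a germline region methylated on the paternal copy, upstream of H19 for Igf2 and upstream of Meg3 for Dlk1. Neither H19 nor Meg3 named a region of at least 3 probes here. mDIP on bulk DNA separates neither the parental copies nor the cells, so a share of methylated copies and a share of methylated cells cannot be told apart.

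All positions of probes and regions are in build mm9. Dlk1 lies on the plus strand of chromosome 12 and had an 8-probe region at chr12:110691154-110692158, called the promoter island, and a 4-probe region at chr12:110697905-110698305, called the downstream island, 5.75 kb further along the gene's strand. Igf2 lies on the minus strand of chromosome 7 and had a 19-probe region at chr7:149844923-149847273, called the main island, of which 16 probes were used. A 4-probe region at chr7:149849765-149850273, with 3 probes used, lay 2.49 kb to its 5′ side and is called the upstream island. The islands are named by their order along the strand, because the files hold no exon, intron or UTR annotation. GeneName was in 2 of the scanner files, and 6 of the 23 Igf2 probes, all in the main island, are Igf2as (the antisense transcript of Igf2) in the newer naming.

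The 4 Dlk1 downstream probes carry the highest values among the members and are shown whole, 5′ to 3′ as deposited, with each CpG in capitals. They hold 10 CpG in 183 bases.
Dlk1 downstream island probe 1, chr12:110697905-110697949: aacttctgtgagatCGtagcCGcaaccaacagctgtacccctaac
Dlk1 downstream island probe 2, chr12:110697987-110698031: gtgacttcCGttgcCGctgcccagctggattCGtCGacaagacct
Dlk1 downstream island probe 3, chr12:110698103-110698147: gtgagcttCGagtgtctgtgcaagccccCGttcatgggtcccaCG
Dlk1 downstream island probe 4, chr12:110698258-110698305: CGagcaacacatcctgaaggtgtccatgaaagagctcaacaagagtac

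The 8 Dlk1 promoter probes hold 20 CpG in 370 bases, so both islands were probed at 5.4 to 5.5 CpG per 100 bases. Shown are the probe at each end and probes 4 and 6, which carry the most CpG and the lowest median value among the inner probes.
Dlk1 promoter island probe 1, chr12:110691154-110691198: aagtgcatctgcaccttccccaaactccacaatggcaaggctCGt
Dlk1 promoter island probe 4, chr12:110691482-110691526: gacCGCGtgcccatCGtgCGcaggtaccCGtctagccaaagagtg
Dlk1 promoter island probe 6, chr12:110691897-110691941: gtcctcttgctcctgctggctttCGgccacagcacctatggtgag
Dlk1 promoter island probe 8, chr12:110692114-110692158: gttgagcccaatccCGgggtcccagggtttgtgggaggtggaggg

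The 3 used upstream probes of Igf2 and 5 main-island probes follow: the probe with the highest wild-type value, the 2 with the lowest ES aid-/- values, and the 2 that match a RefSeq start of Igf2.
Igf2 upstream island probe 1, chr7:149849765-149849812: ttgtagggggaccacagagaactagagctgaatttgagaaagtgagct
Igf2 upstream island probe 2, chr7:149849962-149850008: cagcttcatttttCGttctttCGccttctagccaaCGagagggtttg
Igf2 upstream island probe 4, chr7:149850229-149850273: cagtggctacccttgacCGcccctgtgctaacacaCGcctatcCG
Igf2 main island probe 4, chr7:149845220-149845264: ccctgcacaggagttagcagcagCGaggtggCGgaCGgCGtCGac
Igf2 main island probe 12, chr7:149846445-149846489: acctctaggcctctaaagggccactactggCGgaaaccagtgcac
Igf2 main island probe 15, chr7:149846759-149846803: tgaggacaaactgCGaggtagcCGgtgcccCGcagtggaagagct
Igf2 main island probe 18, chr7:149847146-149847190: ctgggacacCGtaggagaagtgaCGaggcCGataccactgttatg
Igf2 main island probe 19, chr7:149847224-149847273: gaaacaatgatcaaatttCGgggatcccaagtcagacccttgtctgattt

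The start windows of RefSeq (build GRCm38.p6, from 250 bases before to 50 bases after a start) hold both members, 4 windows for Igf2 and 1 for Dlk1. Main-island probes 18 and 19 matched 1 Igf2 window over their whole length as reverse complements, probe 18 from 14 bases before the start to 31 bases after it and probe 19 from 97 to 48 bases before it. Main-island probe 1 matched 37 bases at the far end of another Igf2 window. No Dlk1 probe and no upstream Igf2 probe shared 20 bases with a window. The 250 bases before the start that probes 18 and 19 match are shown because they place the 5′ end of the main island at a promoter. They hold 10 CpG, and 37.8% of the 32851 windows of this length hold at least as many (CG counted on 1 strand, which reads the same on the other).
Igf2 start window, GRCm38.p6 chr7:142661272-142661521, minus strand: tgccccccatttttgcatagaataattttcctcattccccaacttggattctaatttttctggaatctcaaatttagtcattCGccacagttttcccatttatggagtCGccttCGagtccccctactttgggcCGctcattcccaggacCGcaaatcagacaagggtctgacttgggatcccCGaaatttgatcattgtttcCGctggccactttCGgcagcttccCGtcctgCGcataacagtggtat

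The Dlk1 downstream island was strongly enriched on every array. Its mean was 2.54 in wild-type ES cells, 4.16 in aid-/-, 3.81 in mbd4-/- and 2.15 in Gadd45a knock down ES cells. In the tissues it stood at 1.85 in aid-/- liver, 2.87 in mbd4-/- liver, 1.73 in aid-/- spleen and 2.41 in mbd4-/- spleen. The ES aid-/- and mbd4-/- arrays were highest and the aid-/- tissues lowest, and the lowest ES array lay inside the range of the tissues. The island ranked between the 91.4 and 97.3 percentile of regions on each array. Neighbours in the order of arrays differed beyond the SD of their probe differences only among the top 4 arrays (ES aid-/-, ES mbd4-/-, mbd4-/- liver, wild-type ES).

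The spots themselves were bright. The median input signal of the 4 probes was 857 in wild-type ES cells and the median bound signal 4891. The same pair of medians was 969 and 12620 for ES aid-/-, 899 and 10337 for ES mbd4-/-, and 798 and 2391 for the Gadd45a knock down. In liver the bound signal was 4218 (aid-/-) and 8108 (mbd4-/-), and in spleen 3242 and 6220. Input therefore varied less than bound signal, and all 4 probes were well above background in both channels on all 8 arrays.

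Within the island the same probe led on all 8 arrays. Probe 4, with a single CpG, had 5.21 in ES aid-/- and 4.53 in ES mbd4-/- against 3.72 in wild type and 3.73 in the knock down. In the tissues it had 2.36 and 4.04 in liver (aid-/-, mbd4-/-) and 2.19 and 3.74 in spleen. Probe 2, with 4 CpG, was the lowest on 7 of the 8 arrays, at 1.81 in wild type and 3.64 in ES aid-/-. The order of probes was thus not the order of their CpG counts.

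**Figure D1:**
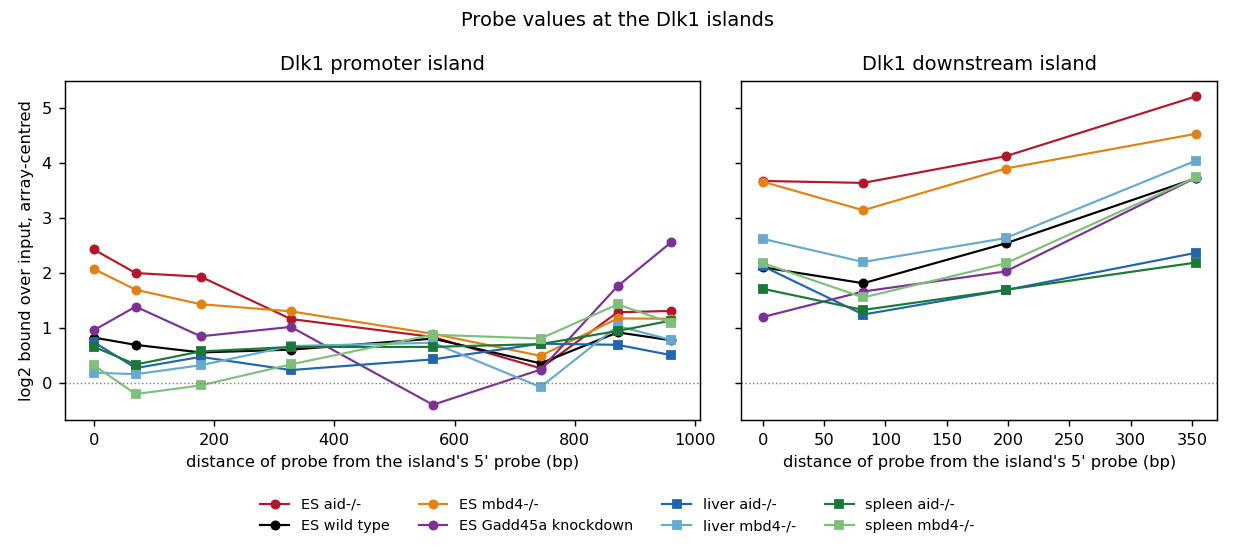
Log2 bound over input, centred on the array median, of each Dlk1 probe (y axis) against its distance in bp from the 5′ probe of its island (x axis), with circles for ES cells and squares for tissues. All downstream probes stand above 1 on all 8 arrays, and the ES aid-/- and mbd4-/- lines lie above the others at the 5′ end of the promoter island.

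The Dlk1 promoter island was mildly enriched on every array. It stood at 0.69 in wild-type ES cells, 1.40 in aid-/-, 1.28 in mbd4-/- and 1.04 in the Gadd45a knock down. For aid-/- and mbd4-/- the means were 0.50 and 0.47 in liver, and 0.70 and 0.57 in spleen. The ES aid-/-, mbd4-/- and knock down arrays lay above all tissue arrays, the wild-type ES array lay just below aid-/- spleen, and no neighbours in the order of the 8 arrays differed beyond the SD of their probe differences. The island ranked between the 80.9 and 89.4 percentile of regions, and all 8 probes were well above background in both channels everywhere.

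The ES arrays parted at the 5′ end of the promoter island, a split of the island chosen after its values were seen and given without a test. The mean of its first 4 probes was 1.88 ± 0.53 (SD over 4 probes) in ES aid-/- and 1.62 ± 0.34 in ES mbd4-/-, against 0.67 ± 0.12 in wild type and 1.05 ± 0.23 in the knock down. The lowest of those 4 probes was 1.16 in aid-/- and 1.30 in mbd4-/-, and the highest in wild type was 0.82, so these probes did not overlap with wild type. They overlapped with the knock down, which reached 1.38. In the last 4 probes aid-/- (0.92 ± 0.49), mbd4-/- (0.93 ± 0.32) and wild type (0.71 ± 0.25) overlapped. The tissues showed no such excess, with first-4 means from 0.10 in mbd4-/- spleen to 0.55 in aid-/- spleen. In the knock down the last 4 probes spread from −0.40 to 2.56, the widest range of any array.

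The downstream island exceeded the promoter island on all 8 arrays. The difference within an array was 1.85 in wild-type ES cells, 2.76 in aid-/-, 2.53 in mbd4-/- and 1.11 in the knock down, and 1.35, 2.40, 1.02 and 1.84 in aid-/- liver, mbd4-/- liver, aid-/- spleen and mbd4-/- spleen. Its mean was 1.86 ± 0.66 (SD, n = 8 arrays), with a two-sided exact sign-flip permutation p of 0.0078, the smallest that 8 arrays allow, and 0.031 after Benjamini-Hochberg adjustment over 4 tests. On 7 of 8 arrays every downstream probe lay above every promoter probe, the exception being the knock down. Arrays of different genotype and tissue stand in for replicates here. All of them carry the same 12 Dlk1 probes in the same dye orientation. A fixed difference between probes would thus have the same sign on every array, and the p cannot tell it apart from methylation. The members were also chosen with earlier results of these data known. The difference did not separate ES cells (2.06 ± 0.74, SD, n = 4) from tissues (1.65 ± 0.60, n = 4), which differed by 0.41 (two-sided exact permutation p = 0.371, the smallest possible being 0.0286).

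**Figure D2:**
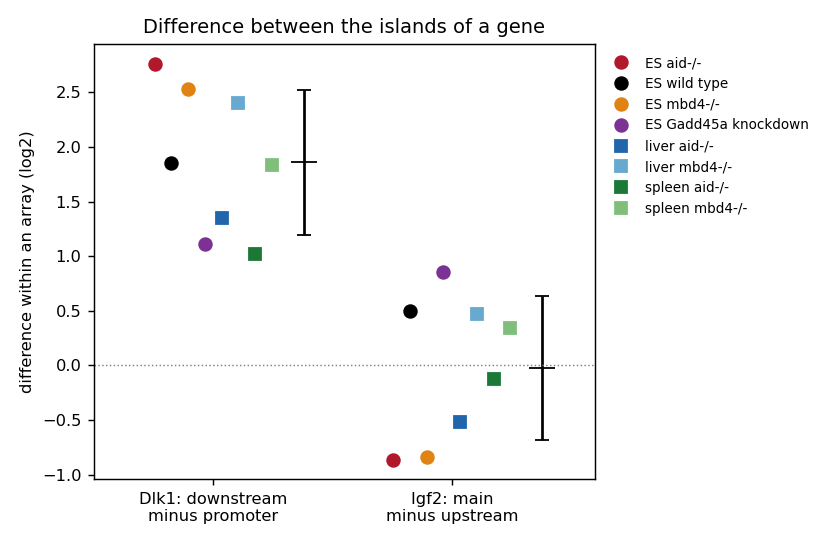
Difference between the 2 islands of each gene within each array (y axis, log2) for Dlk1 and Igf2 (x axis), with circles for ES cells, squares for tissues and a bar for the mean ± SD over 8 arrays. All 8 Dlk1 points lie above 1, and the Igf2 points fall on both sides of 0.

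The Igf2 main island lay near the array median. It stood at −0.14 in wild-type ES cells, −0.48 in aid-/-, −0.57 in mbd4-/- and 0.59 in the Gadd45a knock down. The tissues were closer together, for aid-/- and mbd4-/- −0.29 and −0.26 in liver, and −0.17 and −0.26 in spleen. Only the knock down had a value above 0, and no neighbours in the order of arrays differed beyond the SD of their 16 probe differences. The median of probes under 40% GC was −1.48 on the knock down array, −0.72 on the wild-type, −0.82 on the ES mbd4-/- and 1.25 on the ES aid-/- array, and with a GC correction the island was 0.67 higher in the knock down than in wild type, against 0.74 without it.

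Single probes of the main island spread widely in ES cells. The values ran from −3.80 to 1.04 in aid-/-, from −3.15 to 1.24 in mbd4-/-, from −1.26 to 1.38 in wild type and from −1.20 to 2.83 in the knock down. In the tissues they ran from −1.47 to 1.39. The 3 lowest of these values have bound signal not well above background and are bounds only: probe 12 in ES aid-/- (−3.80) and ES mbd4-/- (−3.15), and probe 15 in ES aid-/- (−3.32). On the 6 arrays that measured it probe 12 ran from −1.43 to −1.01, and probe 15 stood at −0.40 in wild type and 2.83 in the knock down. With the probes measured in the bound channel on all arrays, the island differed from wild type by −0.029 in ES aid-/- and −0.29 in ES mbd4-/-, against −0.34 and −0.43 with all 16. Of the 16 probes none was above 0 on all 8 arrays, and the bound signal of 11 of the 19 was well above background everywhere.

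The probes that the newer naming gives to Igf2as were higher than the other main-island probes on most arrays. The 5 used ones had means of 0.36 in wild type, 0.45 in the knock down, 0.50 in ES aid-/- and −0.55 in ES mbd4-/-. The other 11 had −0.37, 0.66, −0.93 and −0.59 in the same order. Of these 11, 4 had bound signal not well above background in ES aid-/-, and 1 of the 5 did. In the tissues the Igf2as probes lay between −0.03 and 0.38 and the others between −0.48 and −0.40. The knock down was the exception to the order. The split was made after the values were seen and has no test.

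The Igf2 upstream island differed in sign between arrays. It stood at −0.64 in wild-type ES cells, 0.38 in aid-/-, 0.26 in mbd4-/- and −0.26 in the Gadd45a knock down. The tissues gave 0.23 in aid-/- liver, −0.73 in mbd4-/- liver, −0.05 in aid-/- spleen and −0.60 in mbd4-/- spleen. The aid-/- array exceeded the mbd4-/- array in each of the 3 tissues, and no neighbours in the order of arrays differed beyond the SD of the 3 probe differences. Probe 2 was the lowest of the 3 used probes on every array except aid-/- liver, at −1.77 in wild type and −0.23 in ES aid-/-, and its bound signal was not well above background in ES aid-/- and the knock down. Without it ES aid-/- was 0.76 and ES mbd4-/- 0.85 above wild type, so the aid-/- array no longer exceeded the mbd4-/- array in ES cells. These values rest on probes 1 and 4, and probe 1 holds no CpG. It is 1 of 4 used member probes without a CpG, the others lying in the main island.

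The 2 islands of Igf2 did not differ in a common direction. The main island minus the upstream island was −0.02 ± 0.66 (SD, n = 8), above 0 on 4 arrays and below 0 on 4, with a two-sided exact sign-flip permutation p of 0.883. It was below 0 on the 3 aid-/- arrays and in ES mbd4-/-, and above 0 in wild type, the knock down and both mbd4-/- tissues. ES cells and tissues differed in it by −0.13 (two-sided exact permutation p = 0.83).

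**Figure D3:**
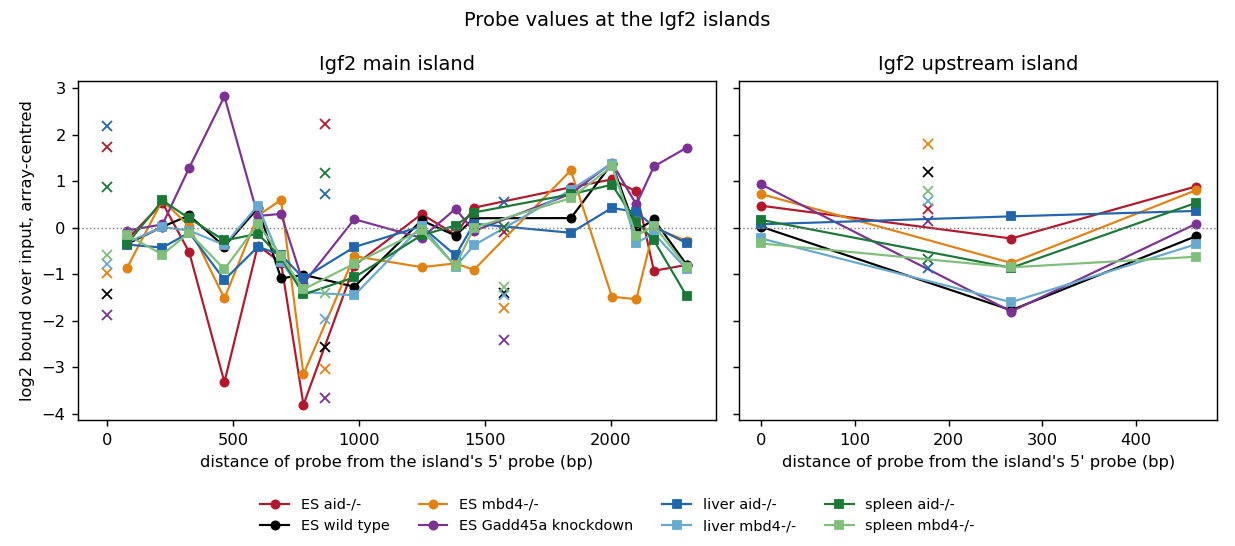
Log2 bound over input, centred on the array median, of each Igf2 probe (y axis) against its distance in bp from the 5′ probe of its island (x axis), with circles for ES cells, squares for tissues and crosses for the 4 probes left out because their input was dim on some array. Values scatter around 0 in both islands, and the 3 lowest joined points (ES aid-/- and mbd4-/-) have bound signal not well above background.

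**Figure D4:**
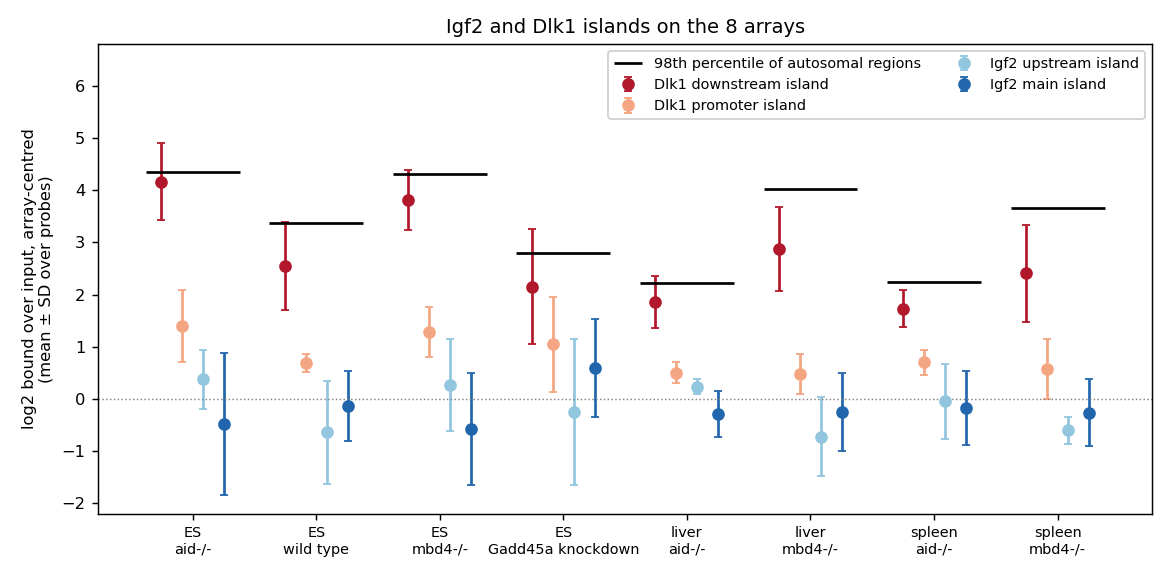
Mean of the used probes of each of the 4 islands (y axis, log2 bound over input, centred on the array median) on the 8 arrays (x axis), with bars for the SD over probes and a black line at the 98th percentile of autosomal regions. The Dlk1 downstream island reaches 65.9% to 95.9% of that percentile, and both Igf2 islands stay at or under 21.2%.

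Comparisons of 2 arrays have no test, and a region was listed when its log2 difference reached 1 in size and 75% or more of its probes pointed that way. The 2 arrays of every pair lay on different slides. Only ES aid-/- and wild type shared a scan day. The ES mbd4-/- and knock down arrays were also read with another version of Agilent Feature Extraction than wild type. These factors cannot be told apart from genotype in the pairs they divide. In ES aid-/- against wild type this listed 10.5% of the 13183 regions, 6.77% higher and 3.71% lower, and 2 of the 4 member regions, both higher. The Dlk1 downstream island was higher by 1.62 ± 0.15 (SD over 4 probes), in 4 of 4 probes, which is above 98.4% of regions. The Igf2 upstream island was higher by 1.02 ± 0.55 in 3 of 3 probes, but probe 2, with bound signal not well above background in ES aid-/-, carries the listing: the other 2 probes gave 0.76, under the fold. The Dlk1 promoter (0.71 ± 0.64, 7 of 8 probes higher) and the Igf2 main island (−0.34 ± 1.12, 7 of 16 probes lower) were not listed.

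In ES mbd4-/- against wild type the rule listed 10.4% of regions, 7.95% higher and 2.42% lower, and 1 of the 4 members. The downstream island of Dlk1 was higher by 1.26 ± 0.32 in 4 of 4 probes. The Igf2 upstream island (0.90 ± 0.17, 3 of 3 probes) and the Dlk1 promoter (0.59 ± 0.43, 8 of 8 probes) were higher in every probe without reaching the fold. The comparisons share the wild-type array.

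The highest values of the arrays moved with these differences. The plateau of an array, its 98th percentile over autosomal regions, was 3.36 in wild type, 4.34 in ES aid-/- and 4.30 in ES mbd4-/-. With all arrays scaled to the same plateau, the Dlk1 downstream island was higher by 0.68 in aid-/- and by 0.43 in mbd4-/-, and neither was listed. Of 10 alternatives, 6 kept the aid-/- listing and 6 the mbd4-/- listing, and 1 kept the Igf2 upstream listing, whose difference ran from 0.34 to 1.19. That island could not be listed with starts within 250 bp or with bound signal above background on all arrays. Both left it with fewer than 3 probes in a region.

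In the Gadd45a knock down against wild type 13.5% of regions were listed, 7.59% higher and 5.88% lower, and no member. Dlk1's downstream island differed by −0.39 ± 0.41 (3 of 4 probes lower), the Dlk1 promoter by 0.36 ± 0.85, the Igf2 main island by 0.74 ± 1.03 (12 of 16 probes higher) and the Igf2 upstream island by 0.38 ± 0.48. Background correction by normexp listed the Dlk1 downstream island as lower, by −1.01.

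In liver, aid-/- against mbd4-/-, 8.89% of regions were listed, 8.01% lower and 0.88% higher. Among the members only Dlk1's downstream island was listed, lower in aid-/- (−1.02 ± 0.49, SD over 4 probes, 4 of 4 probes). In spleen 8.34% of regions were listed, 8.15% lower and 0.182% higher, and no member. The downstream island differed there by −0.68 ± 0.59 with 4 of 4 probes lower. The plateau of aid-/- and mbd4-/- was 2.23 and 4.02 in liver, and 2.24 and 3.65 in spleen. On a common plateau the downstream difference turned to 0.39 in liver and 0.38 in spleen. The Igf2 upstream island ran the other way, higher in aid-/- by 0.96 ± 0.80 in liver and 0.55 ± 0.58 in spleen without being listed, while the Igf2 main island and the Dlk1 promoter differed by −0.03 to 0.13.

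ES cells and tissues were compared by limma with Benjamini-Hochberg adjustment over 13183 regions, with the genotypes of a tissue taken as its replicates. It called 29 regions (0.22%), 0.0834% higher and 0.137% lower in ES cells, and no member. At an unadjusted p under 0.05 it held 15.1% of regions, the Dlk1 promoter among them. The Dlk1 downstream island was 3.16 ± 0.97 (SD, n = 4) in ES cells and 2.22 ± 0.53 (n = 4) in tissues, a limma difference of 0.95 with a standard error of 0.48, a 95% interval of −0.15 to 2.04 and an adjusted p of 0.395. The Dlk1 promoter was 1.101 ± 0.31 and 0.56 ± 0.10, a limma difference of 0.54 (interval 0.06 to 1.02, adjusted p = 0.282).

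For Igf2 the same limma contrast gave 0.22 (interval −0.50 to 0.94, adjusted p = 0.794) at the upstream island and 0.09 (−0.53 to 0.72, adjusted p = 0.911) at the main island. In all 4 members the arrays of the groups overlapped. Within the scan day that holds both kinds of sample (2 ES and 2 aid-/- tissue arrays) the differences were 1.56 and 0.44 at the Dlk1 downstream and promoter islands, and −0.22 and −0.08 at the Igf2 upstream and main islands. Liver minus spleen, from the same limma fit, called 0 of 13183 regions, with 187 (1.42%) at an unadjusted p under 0.05, and the member differences ran from −0.15 to 0.29.

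Over ES cells, liver and spleen, aid-/- against mbd4-/- with tissue as a block called 0 of 13183 regions by limma, with 1679 (12.7%) at an unadjusted p under 0.05, the Igf2 upstream island among them. Dlk1's downstream island gave a limma difference of −0.45 with a standard error of 0.29 (interval −1.16 to 0.26, adjusted p = 0.501), with 1 tissue higher in aid-/- and 2 lower. The mean of the 3 Igf2 upstream probes was higher in aid-/- in 3 of 3 tissues, by 0.54 (interval 0.01 to 1.07), with a limma adjusted p of 0.389. By single probes 3 of 3 were higher in liver, and 2 of 3 in spleen and in ES cells. Without probe 2 the mean was not higher in ES cells. The Dlk1 promoter (0.10) and the Igf2 main island (0.05) differed less. Without either ES array the fit rests on the 4 tissue arrays, 1128 regions passed, and the Dlk1 downstream island gave −0.85 with a limma adjusted p of 0.034. Scan day and genotype cannot be told apart in this contrast. In simulated data at the observed spread, the fit over 3 tissues recovered 0 of 100 regions shifted by 2 log2. The lack of calls in this fit does not show that the genotypes were alike.

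Near Dlk1 a region without a gene name was as enriched as the downstream island. It has 3 probes at chr12:110766379-110766612, 68.4 kb beyond the downstream island, and stood at 3.41 in wild-type ES cells, 4.58 in aid-/-, 4.28 in mbd4-/- and 2.61 in the knock down. For aid-/- and mbd4-/- it was 1.25 and 3.34 in liver, and 1.95 and 2.59 in spleen. It was listed as higher in ES aid-/- (1.17) and lower in aid-/- liver (−2.09). It exceeded the downstream island on every array except aid-/- liver. The other neighbours within 200 kb were a single probe 60.3 kb before the downstream island, which ran from −0.25 to 2.97, and Mrpl23, a mitochondrial ribosomal protein gene 127 kb from the Igf2 main island, which ran from −0.23 to 0.97.

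Elsewhere in the Dlk1-Dio3 domain 1 of the 5 regions named for Wars, Begain, Dio3os and Dio3 stood above 1. This 10-probe region of Begain, a neuronal scaffold gene, at chr12:110271448-110272557 stood at 2.48 in wild type and 1.49 in the knock down, against 3.63 (aid-/-) and 3.78 (mbd4-/-) in the other ES arrays. It was listed in 4 of the 5 array pairs, higher by 1.15 and 1.30 in ES aid-/- and mbd4-/-, and lower in aid-/- liver (−1.42) and spleen (−1.59). The other Begain region stayed between 0.04 and 0.79. Dio3, which encodes the deiodinase that inactivates thyroid hormone, ran from −0.64 to 0.88 and was listed as lower in the knock down (−1.38).

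**Figure D5:**
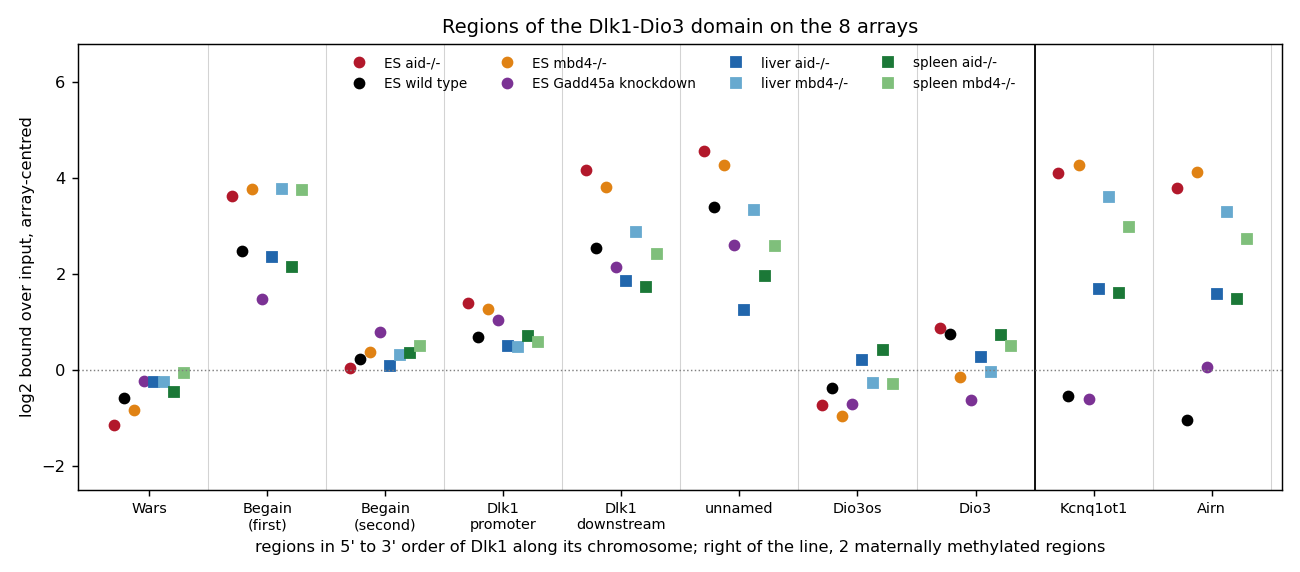
Log2 bound over input, centred on the array median (y axis), of regions along the Dlk1-Dio3 domain in chromosome order and, right of the black line, of regions of Kcnq1ot1 and Airn from the list of maternally methylated regions (x axis), with circles for ES cells and squares for tissues. The wild-type and knock down ES arrays lie above 1 at the Dlk1 downstream island, the unnamed region and the first Begain region, and at or under 0.06 at Kcnq1ot1 and Airn.

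The list of genes with maternally methylated germline regions gave a different pattern in ES cells. Its 31 regions were taken by gene symbol, so not every one need be the maternally methylated region of its gene. The H13 region, for example, ran from −1.02 to 0.10. Kcnq1ot1, the antisense RNA that silences the domain next to Igf2, stood at −0.54 in wild type and −0.61 in the knock down against 4.11 and 4.27 in aid-/- and mbd4-/-. The region of Airn, the antisense RNA within Igf2r, at chr17:12934260-12935460 stood at −1.04, 0.06, 3.79 and 4.13 in the same order, and the growth factor list holds it as Igf2r. The other region of Igf2r, the receptor that clears Igf2, at chr17:12961815-12962950 stood at 0.59, 0.71, 1.21 and 1.19 and was listed in no ES comparison. The median of the 31 listed regions was 0.11 in wild type and 0.10 in the knock down, where 3 and 4 of them exceeded the Dlk1 downstream island. In ES aid-/- and mbd4-/- 8 and 17 of them did. In the tissues 4 and 5 exceeded it in aid-/- liver and spleen, and 23 and 22 in the mbd4-/- ones. Of the 31, 19 were listed higher and 1 lower in ES aid-/-, 18 higher in ES mbd4-/-, 2 higher in the knock down, and 24 and 21 lower in aid-/- liver and spleen. In that order 64.5%, 58.1%, 6.45%, 77.4% and 67.7% of the list was listed, against 10.5%, 10.4%, 13.5%, 8.89% and 8.34% of all regions. The median differences were 1.72, 2.07, 0.12, −1.68 and −1.24 where all regions had −0.05, 0.08, 0.17, 0.00 and −0.13.

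The 10 regions of the Igf2-H19 and Kcnq1 domains were listed as follows. In ES aid-/- 1 was higher (10% of the list, 10.5% of all regions), and in ES mbd4-/- 1 was higher and 1 lower (20% against 10.4%). None was listed in the knock down (13.5% of all regions), and 2 were lower in aid-/- liver and 2 in spleen (20% against 8.89% and 8.34%). Kcnq1ot1 was the region listed higher, and with Cdkn1c, a growth inhibitor (−1.40 in liver, −1.45 in spleen), it was the one listed lower in the tissues. Tssc4 was lower in ES mbd4-/- (−1.33). Their median difference was 0.09 in ES aid-/- and −0.14 in ES mbd4-/-. In the 5 regions of the Dlk1-Dio3 list it was −0.19 and −0.25, where all regions had −0.05 and 0.08. In each of the 5 pairs 1 of these 5 regions was listed, Dio3 in the knock down and the same Begain region in the others. That is 20% of the list, against 10.5%, 10.4%, 13.5%, 8.89% and 8.34% of all regions.

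Among other genes with paternally methylated germline regions only Zdbf2 and Rasgrf1 had a region. Both were taken by gene symbol, and the labels do not show that they are the germline regions. Zdbf2 stood at −0.97 in wild type and ran from −1.27 to 0.50, and Rasgrf1, a guanine exchange factor of neurons, from −0.25 to 0.34. Neither of these regions approached the Dlk1 downstream island, which gives no value for the germline regions themselves. Zdbf2 was listed as higher in the knock down (1.08) and in aid-/- liver (1.04).

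Growth factor and Notch genes were mostly near the array median. Of 21 regions of the insulin-like growth factor axis, 2 were higher and 1 lower in ES aid-/-, 2 higher in ES mbd4-/-, 2 higher and 1 lower in the knock down, and 2 and 3 lower in aid-/- liver and spleen. In that order 14.3%, 9.52%, 14.3%, 9.52% and 14.3% of the list was listed, against 10.5%, 10.4%, 13.5%, 8.89% and 8.34% of all regions. Those higher in ES aid-/- and mbd4-/- were the region also listed as Airn and an Irs2 region (the insulin receptor substrate), which stood at 3.32 in wild type and 4.53 in ES aid-/-. The median difference in ES aid-/- was −0.03. Of 21 Notch regions, 1 was lower in ES aid-/-, a Hes1 region (a Notch target, −2.23), 1 lower in ES mbd4-/-, another Hes1 region (−1.57), 1 higher in the knock down, at the ligand gene Dll4 (1.03), and none in the tissues. In each ES comparison 4.76% of the Notch list was listed, against 10.5%, 10.4% and 13.5% of all regions. Their median difference in ES aid-/- was −0.19.

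The regions most like a member over the 8 arrays were found by Pearson r among 12548 gene-named regions, as a description that shares the arrays' own range. Muc2 (a gut mucin, r = 0.989), Hes6 (0.985) and Card10 (0.984) followed the Dlk1 downstream island most closely, and 208 regions exceeded 0.9. Hes6 did so at 0.18 to 0.95, far below the island's level. For the Dlk1 promoter they were Nr2e1 (0.956), Prdm13 (0.953) and Gabrb1 (0.948), with 38 regions over 0.9. For the Igf2 main island they were Lrtm2 (0.993), Tyms (0.988) and Rtkn2 (0.985), each highest in the knock down, with 272 over 0.9. For the Igf2 upstream island they were Prelid2 (0.950), 2310035K24Rik (0.946) and Gm53 (0.935), with 6 over 0.9. Between the 2 Dlk1 islands r was 0.739, and between the 2 Igf2 islands −0.355.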

How the data were processed

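Bound (Cy5) and input (Cy3) DNA of 8 samples were read on Agilent mouse CpG island arrays. Each deposited scanner file gives a red and a green intensity per spot from Agilent Feature Extraction (10.7.3.1 for ES mbd4-/- and Gadd45a knock down, 10.9.1.1 for the others), per the file headers under its ChIP protocol. The software's processed signals were used as given, and 2 of the files state its background and detrending settings. The deposited log10 ratio of Cy5 over Cy3 was used only to check direction. The deposited value table is a score with mean 0 and SD near 1 per array, whose log base and scale are unknown, and served as an alternative. It was multiplied by 1.30, which sets its spread to that of the log2 ratios. Its column medians ran from −0.21 to −0.03 and it correlated with the scanner ratio over probes at r = 0.898 to 0.972. How the authors made that table from the scanner files is not stated in the labels. Positions are in mm9, per the file headers.

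From the processed signals, log2 ratios were centred on each array's median over 88737 non-control probes, with no loess or quantile step. Probes without a position (326), outliers (132) and probes with dim input on any array (7174) were left out, which kept 81105. The share of probes with bound signal well above background was 65.5% to 92.3%, lowest on ES aid-/-. The number of arrays limits the precision. All arrays have the same dye orientation, so dye bias cannot be told apart from enrichment. Fits used limma 3.58.1 in R 4.3.3, with t quantiles for the intervals from scipy 1.17.1. Permutation tests enumerated every sign pattern or split of the arrays. The threshold was 0.05. The fits were tested on simulated data with the observed spread. The ES-against-tissue fit recovered 20 of 100 regions shifted by 1 log2 and 77 of 100 shifted by 2 log2. The aid-/- against mbd4-/- fit recovered 0 of 100 at either shift, and 40 and 88 of 100 at 0.5 of that spread. The simulated spread includes genotype differences that this fit removes, so the power of the fit cannot be read from it. A region that the fit did not call may still differ.

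Regions named besides the members follow fixed rules: the 3 with the highest r to each member region, lists of the 2 domains, of other paternally and of maternally methylated genes, of the insulin-like growth factor axis and of Notch genes, and neighbours within 200 kb. Names come from the newer array design. The members and lists were chosen with earlier results of these data known. Alternatives changed the background correction, centring, scaling, filters, joining distance, summary, GC correction, blocks and arrays used. Normexp was run on median signals, chosen after seeing the data, because mean signals are in 2 of the files.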

Additional observations from a re-analysis of the deposited data

How the results depend on the processing

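No paired analysis was possible because each group is 1 array, so replicate numbers pair nothing; the tissue block of aid-/- against mbd4-/- and the within-array differences pair by tissue and array. The slide as a random block could not be estimated for aid-/- against mbd4-/-. Of 503 alternative values 423 kept their direction and side of the threshold, stayed within the probe SD or, for counts of regions, stayed within a set fold of the main count. Values that passed the threshold neither time are among the 423. Direction reversed in 25, 53 moved beyond these limits, and 2 passed the threshold where the main value did not. The Dlk1 downstream minus promoter difference stayed between 1.40 and 2.14 under 10 alternatives and between 1.73 and 1.98 without any 1 array. No member passed in the ES-against-tissue fit under any alternative. For what follows, the cause was not tested unless fewer samples or regions enter. Bound signal well above background on 65.5% of probes limits the ES aid-/- array most.

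Regions passing in the ES-against-tissue fit (29) became 9 with bound signal above background on all arrays, 143 centred on the low mode, 433 from deposited values, 477 at equal spread, 59 with GC correction, 1 with normexp, 427 on a common plateau, 71 with slide as a random block, 5 with scan day as a block, and 0 (without liver mbd4-/-) to 198 (without the knock down) with 1 array left out. For aid-/- against mbd4-/- (0) the low mode gave 1 and leaving out 1 array 0 to 1128.

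Listed regions for ES aid-/- (1382) became 247 with normexp, 557 on a common plateau, 651 at equal spread, 416 from deposited values and 872 with bound signal above background. For ES mbd4-/- (1367) the first 4 of these gave 179, 518, 576 and 561. Normexp gave 825 for the knock down (1776). A common plateau, equal spread and deposited values gave 248, 418 and 441 in liver (1172) and 635, 715 and 583 in spleen (1099). The share listed higher moved from 64.6% to 98.4% (normexp) in ES aid-/-, from 56.4% to 12.5% (normexp) in the knock down, from 9.90% to 52.4% (deposited values) in liver and from 2.18% to 20.6% (common plateau) in spleen, and in ES mbd4-/- from 76.7% to 94.5% (bound signal above background). The median difference of all regions went, centred on the low mode, from −0.05 to 0.12 in ES aid-/-, from 0.17 to 0.30 in the knock down and from −0.0049 to 0.31 in liver, with normexp from 0.17 to 0.0048 in the knock down, and from −0.05 to 0.055 with deposited values in ES aid-/-.

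The Dlk1 downstream island against wild type gave, for ES aid-/- (1.62), 0.97 with normexp, 1.79 on the low mode, 0.68 on a common plateau, 0.78 at equal spread and 0.48 from deposited values, for ES mbd4-/- (1.26) 0.69, 0.43, 0.41 and 0.41 with normexp, common plateau, equal spread and deposited values, and for the knock down (−0.39) −1.01, 0.046, −0.93 and −0.97 in that order. Common plateau, equal spread and deposited values gave 0.39, 0.22 and 0.061 in liver (−1.02) and, over 3 tissues (−0.45), 0.34, 0.12 and 0.0059, and a common plateau gave 0.38 in spleen (−0.68). The 3-tissue difference ran from −0.85 to −0.16 with 1 array left out. At the Dlk1 promoter deposited values gave 0.56 in liver (0.03) and a common plateau 0.53 in spleen (0.13).

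The Igf2 upstream island gave, with normexp, 0.34 in ES aid-/- (1.02) and 0.10 in ES mbd4-/- (0.90), and 0.90 in the knock down (0.38) from deposited values. Its ES-against-tissue difference (0.22) was −0.22 with scan day as a block and −0.018 to 0.46 with 1 array left out. At the Igf2 main island that difference (0.09) was −0.039 on the low mode, −0.10 with no input filter, −0.081 with scan day as a block and −0.16 to 0.23 with 1 array left out, and the 3-tissue difference (0.05) was −0.049 from deposited values, −0.038 at equal spread, −0.055 on a common plateau and −0.17 with starts within 250 bp.

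The ES-against-tissue contrast of the Dlk1 island difference (0.41) was −0.19 at equal spread. That of the Igf2 island difference (−0.13) was 0.12 on a common plateau, 0.0036 at equal spread and −0.44 to 0.13 with 1 array left out, and the Igf2 difference itself (−0.02) ran from −0.15 to 0.10.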
